A study of Mus musculus with 6 samples.

Results

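Tubulin isotypes and stathmin are the building blocks of microtubules and a protein that holds those blocks in solution. The 10 genes were *Tubb2a*, *Tubb2b*, *Tubb3*, *Tubb4b*, *Tubb5* and *Tubb6* (beta-tubulins), *Tuba4a* and *Tuba8* (alpha-tubulins), *Tubg1* (gamma-tubulin) and *Stmn1* (stathmin). They are 10 of 18193 genes named on the arrays, and every probe set carrying 1 of their symbols alone was taken: 20 probe sets on the Affymetrix 430A design and 2 on the 430B design, of 22690 and 22575. The set was chosen on measured values of these same arrays, so the LT, 17kT and WT values below are a description and carry no test.

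The study followed hepatic gene expression under conditional, liver-specific SV40 oncoproteins, with mouse liver RNA on 6 arrays, 1 array of each design for each of 3 genotypes. LT livers came from mice carrying ApoErtTA:TRE2-TAg, in which doxycycline induced SV40 large T antigen (LT) and small t antigen (st). 17kT livers came from mice with a label of the same form (written 17kT ApoErtTA:TRE2-TA in the genotype field), induced for the SV40 protein 17kT together with st. WT livers came from non-transgenic mice. All mice were male, of a hybrid B6SJL background and 32 to 37 days old. All 3 groups, WT included, drank 25 micrograms/ml doxycycline with 2.5% sucrose for 4 days. WT mice lacked the whole transgene pair, so LT, 17kT, st and the transactivator cannot be told apart in a comparison with WT. Whether an array held RNA of 1 animal or of a pool was not given in the labels used here. Each genotype has 1 array per design, so nothing here has a replicate behind it and p-values are left out.

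Microtubules are polymers of alpha- and beta-tubulin pairs, nucleated by gamma-tubulin, and cells draw on several genes for each subunit that differ mainly in their tails and in where they are expressed. Stathmin binds unpolymerised tubulin pairs and promotes disassembly, and its phosphorylation at mitosis releases them for the spindle. Hepatocytes of an adult liver rarely divide, and free tubulin in a cell lowers the stability of tubulin mRNA.

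Signals are the authors' MAS5 values on a linear scale, brought by them to nearly the same trimmed mean on each array (250.03 to 250.12). The floor was the median of all signals of a design, 90.4 on 430A and 140.5 on 430B, and lower signals were set to it before a ratio was taken. A gene is represented by its probe set of highest mean signal over the floor of its design, with _x_at probe sets used only where a gene has no other, and is called higher or lower from 2-fold, a log2 ratio of 1. Technical spread was read in place of replicates. It is the SD of the differences between 2 readings divided by the square root of 2, which is the spread of 1 reading. For log2 ratios of 100 probe sets present on both designs it was 0.23 in LT against WT and 0.28 in 17kT against WT. It was 0.26 in LT against 17kT. The same probe sets also showed an offset between designs, with the median log2 ratio on 430A minus that on 430B at -0.25, 0.19 and -0.36. This offset bears on *Tubb6* and *Tuba8*, the members read on both, and on every other gene below that is read on 430B. Different probe sets of 1 gene varied more, with an SD taken the same way of 0.52, 0.49 and 0.44 in the same comparisons. This wider SD is the error set beside each ratio. It describes probe sets within a design and holds no variation between animals, so it is not the precision of a genotype effect. Probe sets of 1 gene can differ by more than it, as those of *Tubb6* do: log2 3.55 on 430A and 0.43 on 430B in LT against WT. Levels are compared between arrays for 1 probe set, and between probe sets to pick the one that represents a gene. The summed signal of a marker list adds probe sets of different genes, of both designs and also those under the floor. Bright genes weigh most in it, and it is compared only between genotypes.

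The tissue label was checked first. The 9 hepatocyte markers measured, among them *Alb* and *Ttr*, were all above the floor on every array. Their summed signal was 169967 in LT liver, 128198 in 17kT liver and 249720 in WT liver. Markers of dividing cells moved the other way, with a summed signal of 23322 in LT liver, 27504 in 17kT liver and 3037 in WT liver. All 14 measured were past 2-fold higher in both comparisons with WT, beside 11.1% of all measured genes in LT and 9.97% in 17kT. In bulk tissue, fewer cells of a type and less RNA per cell cannot be told apart. Of the 9 hepatocyte markers, 2 were past 2-fold lower in LT and 5 in 17kT, beside 9.02% and 8.65% of all measured genes. Under the scalings given below, the number lower ran from 2 to 5 in LT and from 1 to 5 in 17kT. The ratio of 3' to 5' signal of *Gapdh*, a sign of RNA quality, was 3.08 and 3.16 on the LT arrays, 3.53 and 2.85 on the 17kT arrays and higher on the WT arrays, at 5.81 and 6.04. That of *Actb* did not set WT apart, at 2.52 and 2.50 on the LT arrays, 2.13 and 1.72 on the 17kT arrays and 2.57 and 2.29 on the WT arrays. Fluidics station 2 served for LT and station 1 for 17kT and WT, so station and LT cannot be told apart. The part of any of these in the values below was not tested.

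*Tubb6*, *Stmn1*, *Tubb4b* and *Tubb5* were higher than in WT liver in both LT and 17kT liver, *Tuba8* passed 2-fold only against WT in LT liver, and *Tuba4a* was lower in 17kT liver. Of the 10 genes, 8 were above the floor on at least 1 array of each comparison. In LT against WT, 5 of these 8 were higher and 0 were lower, beside 11.1% of all 12774 measured genes higher and 9.02% lower. In 17kT against WT, 4 were higher and 1 was lower, beside 9.97% and 8.65% of 12990 genes. In LT against 17kT, 0 were past 2-fold in either direction, beside 4.47% higher and 4.23% lower of 12539 genes. Since the genes were chosen with these contrasts in view, the counts describe the set and carry no weight beyond it. The median log2 ratio of the 8 genes was 1.39 in LT against WT (0.02 over all measured genes), 0.98 in 17kT against WT (0.08) and 0.03 in LT against 17kT (-0.03). The 2 comparisons with WT share the same WT arrays.

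**Figure D1:**
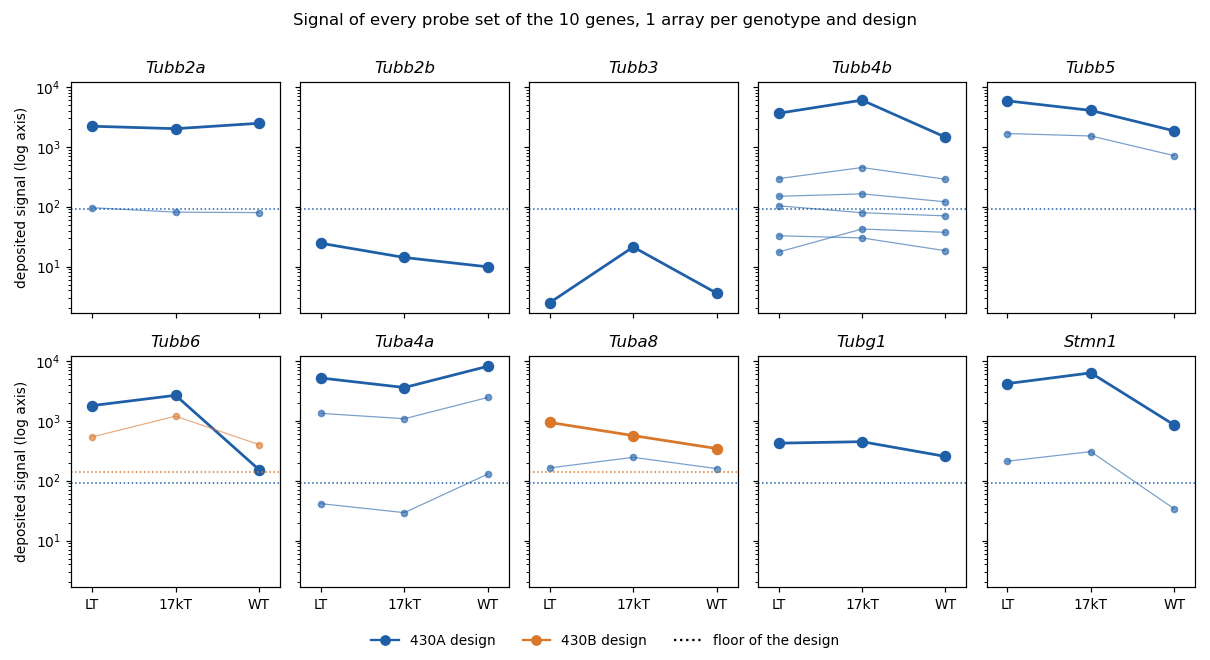
Deposited signal on a log axis of all 22 probe sets of the 10 genes in LT, 17kT and WT liver, 1 array per point, blue for the 430A design and orange for 430B; the thick line is the probe set that represents the gene, thin lines are its other probe sets and the dotted line is the floor. *Tubb6* and *Stmn1* sit far higher in LT and 17kT liver than in WT liver, *Tuba4a* runs the other way, and *Tubb2b* and *Tubb3* lie under the floor on every array.

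*Tubb6*, a widely expressed and sequence-divergent beta-tubulin, showed the widest separation from WT of the 10 genes. Its 430A probe set 1416431_at read 1789 in LT liver, 2657 in 17kT liver and 152.6 in WT liver. Both transgenic livers therefore stood more than 10-fold above WT on it: the ratio was 11.7-fold in LT (log2 3.55, error 0.52) and 17.4-fold in 17kT (log2 4.12, error 0.49). The WT signal was only 1.69 times the floor, and adding the floor to every signal gave log2 2.95 in LT and 3.50 in 17kT. LT lay 1.49-fold below 17kT (log2 -0.57, error 0.44), not past 2-fold. The probe set on the 430B design disagreed in size. There 1446353_at read 537.5 in LT liver, 1191 in 17kT liver and 400.1 in WT liver. On it, 17kT was 2.98-fold above WT, LT only 1.34-fold above WT and 2.22-fold below 17kT. The order of the genotypes was the same on both probe sets, 17kT highest and WT lowest.

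*Tubb4b*, a widely expressed beta-tubulin that is also a main beta subunit of cilia, was higher in both transgenic livers by its brightest probe set. Probe set 1423642_at read 3628 in LT liver, 5995 in 17kT liver and 1445 in WT liver. That is 2.51-fold above WT in LT (log2 1.33, error 0.52) and 4.15-fold in 17kT (log2 2.05, error 0.49). LT was 1.65-fold below 17kT (log2 -0.72). The 5 other probe sets of *Tubb4b* gave smaller ratios or none. 1456470_x_at read 294.2, 450.1 and 286.9 in LT, 17kT and WT liver, a log2 ratio of 0.04 in LT and 0.65 in 17kT against WT, and 1438622_x_at read 148.9, 163.7 and 120.6. Of the rest, 1456078_x_at was above the floor only in LT liver, at 103.4, and 1439416_x_at and 1456031_at were under it on every array. The suffix _x_at marks probe sets with probes that may bind other transcripts, so the *Tubb4b* increase rests on 1 of 6 probe sets.

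*Tubb5*, the isotype most dividing mammalian cells use as their general beta-tubulin, was higher in both transgenic livers on both of its probe sets. Probe set 1416256_a_at read 5839 in LT liver, 4044 in 17kT liver and 1840 in WT liver. This is 3.17-fold above WT in LT (log2 1.67, error 0.52) and 2.20-fold in 17kT (log2 1.14, error 0.49). The probe set 1455719_at read 1663 in LT liver, 1513 in 17kT liver and 709.9 in WT liver, 2.34-fold and 2.13-fold above WT. In LT against 17kT the first gave 1.44-fold higher and the second 1.10-fold higher, log2 ratios of 0.53 and 0.14 beside an error of 0.44. Among the beta-tubulins above WT, *Tubb5* had LT highest, whereas *Tubb6* and *Tubb4b* had 17kT highest, with no difference between LT and 17kT past 2-fold on the representing probe sets.

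The 250 bases before the start of *Tubb4b* and *Tubb5*, the beta-tubulins that were higher in both livers and have an entry in the RefSeq promoter table (GRCm38.p6), are shown with those of *Tuba4a*, the gene that was lower in 17kT liver. Capitals mark NF-Y motifs (CCAAT) and the cell cycle homology region (CHR, TTTGAA or TTCGAA) on either strand. They lie at chr2:25224703-25224952, chr17:35838302-35838551 and chr1:75219295-75219544, all on the minus strand, and each is written 5′ to 3′ on the strand of the gene.
Tubb4b: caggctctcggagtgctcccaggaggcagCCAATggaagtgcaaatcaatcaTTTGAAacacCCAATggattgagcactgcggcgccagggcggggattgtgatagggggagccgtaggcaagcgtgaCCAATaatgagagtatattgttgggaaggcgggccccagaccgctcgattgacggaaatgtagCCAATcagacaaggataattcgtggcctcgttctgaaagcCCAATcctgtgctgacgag
Tubb5: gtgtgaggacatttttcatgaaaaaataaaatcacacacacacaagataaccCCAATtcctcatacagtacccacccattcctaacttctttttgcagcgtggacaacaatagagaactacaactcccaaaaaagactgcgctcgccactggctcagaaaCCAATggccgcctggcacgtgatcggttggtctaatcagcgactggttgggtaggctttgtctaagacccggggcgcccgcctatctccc
Tuba4a: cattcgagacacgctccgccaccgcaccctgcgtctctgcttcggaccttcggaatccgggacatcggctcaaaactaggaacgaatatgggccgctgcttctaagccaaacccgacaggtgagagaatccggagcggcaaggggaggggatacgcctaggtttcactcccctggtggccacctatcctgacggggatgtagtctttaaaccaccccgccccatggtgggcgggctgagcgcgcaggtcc
The *Tubb4b* promoter held 5 CCAAT letters, their first bases 221, 188, 122, 59 and 19 bases before the start, and 1 CHR at 198. The *Tubb5* promoter held 2, at 198 and 90, and that of *Tuba4a* held none of either motif. Over windows of 300 bases, which add 50 bases after the start, 37.4% of 32851 promoters in the table held CCAAT, 11.7% held 2 or more, 0.271% held 5 or more and 19.2% held the CHR. E2F motifs (TTTCCCGC, TTTGGCGC, TTTGCCGC, TTTCGCGC, TTTGGCGG and TTTCCCGG, both strands) were in 3.98% of promoters and in none of the 6 members with an entry. Of those 6, *Tubb3* held 1 CCAAT and *Tuba8* and *Tubb2a* held none, and no matches overlapped. A match says only that the letters are there.

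The beta-tubulins best known from neurons gave no increase past 2-fold. *Tubb2a*, abundant in brain and found in other tissues, read 2201 in LT liver, 2004 in 17kT liver and 2465 in WT liver on 1427347_s_at. The 3 livers lay within 1.23-fold of each other (log2 -0.16 in LT and -0.30 in 17kT against WT), less than the error. That sign depended on the scaling, with log2 ratios of -0.41 to 0.21 in LT and -0.51 to 0.42 in 17kT over the scalings tried. Its dimmer probe set 1427838_at was above the floor only in LT liver, at 96.1, so the *Tubb2a* reading rests on 1427347_s_at alone. *Tubb2b*, an isotype of the developing brain, read 24.5 in LT liver, 14.2 in 17kT liver and 9.9 in WT liver, all under the floor. *Tubb3*, the isotype used as a marker of neurons, read 2.5 in LT liver, 21.2 in 17kT liver and 3.6 in WT liver, also under the floor. No fold is given for these, and 7 of 10 neuron markers, among them *Snap25*, *Syp* and *Elavl4*, were likewise under it on all arrays.

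The alpha-tubulins went apart. *Tuba4a*, which is made without the C-terminal tyrosine that most alpha-tubulins carry, was lower in both transgenic livers and past 2-fold in 17kT. Probe set 1417373_a_at read 5170 in LT liver, 3585 in 17kT liver and 8115 in WT liver. That is 1.57-fold below WT in LT (log2 -0.65, error 0.52) and 2.26-fold below WT in 17kT (log2 -1.18, error 0.49). The second probe set gave the same picture: 1417374_at read 1328 in LT liver, 1081 in 17kT liver and 2448 in WT liver, 1.84-fold and 2.27-fold below WT. The third, 1417375_at, was above the floor only in WT liver, at 128.9, so both transgenic livers were at least 1.43-fold lower. All 3 probe sets thus put WT highest and the brighter 2 put 17kT lowest, but quantile normalization left the 17kT ratio at -0.67 and scaling to hybridisation controls at -0.46, neither past 2-fold.

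*Tuba8*, a divergent alpha-tubulin, was past 2-fold only in LT liver and only on 1 of its 2 probe sets. On the 430B design 1446771_at read 936.5 in LT liver, 564.9 in 17kT liver and 343.7 in WT liver, 2.72-fold above WT in LT (log2 1.45, error 0.52) and 1.64-fold in 17kT (log2 0.72, error 0.49). LT stood 1.66-fold above 17kT there, not past 2-fold. On the 430A design 1419518_at read 163.3 in LT liver, 245.0 in 17kT liver and 158.9 in WT liver. The second probe set put LT beside WT (log2 0.04) and 17kT highest (log2 0.62), so the 2 probe sets disagree on the order of LT and 17kT. The increase in LT also stood just under 2-fold, at log2 0.97, when the probe sets held by both designs set the scale.

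*Tubg1*, the gamma-tubulin that nucleates microtubules at the centrosome, was higher in both transgenic livers without reaching 2-fold. Its probe set 1417144_at read 422.2 in LT liver, 447.2 in 17kT liver and 253.5 in WT liver. LT was 1.67-fold above WT (log2 0.74, error 0.52), 17kT was 1.76-fold above WT (log2 0.82, error 0.49), and LT and 17kT lay within 1.06-fold of each other. Scaling to hybridisation controls brought both past 2-fold (log2 1.11 in LT and 1.54 in 17kT). Nearest the threshold, *Tubb5* (log2 1.14) and *Tuba4a* (-1.18) in 17kT against WT were just past 2-fold, and *Tubg1* in 17kT (0.82) and in LT (0.74) against WT just missed it.

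*Stmn1*, stathmin, also known as oncoprotein 18, was the second most separated gene after *Tubb6*. Probe set 1415849_s_at read 4167 in LT liver, 6292 in 17kT liver and 848.5 in WT liver. The ratio to WT was 4.91-fold in LT (log2 2.30, error 0.52) and 7.42-fold in 17kT (log2 2.89, error 0.49), and LT was 1.51-fold below 17kT (log2 -0.59). The dimmer 1448113_at read 211.2 in LT liver, 305.3 in 17kT liver and 33.8 in WT liver. WT was there under the floor, so LT was at least 2.34-fold and 17kT at least 3.38-fold above WT. Both probe sets put 17kT highest and WT lowest. The other stathmins, *Stmn2*, *Stmn3* and *Stmn4*, known chiefly from neurons, were under the floor on all arrays.

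**Figure D2:**
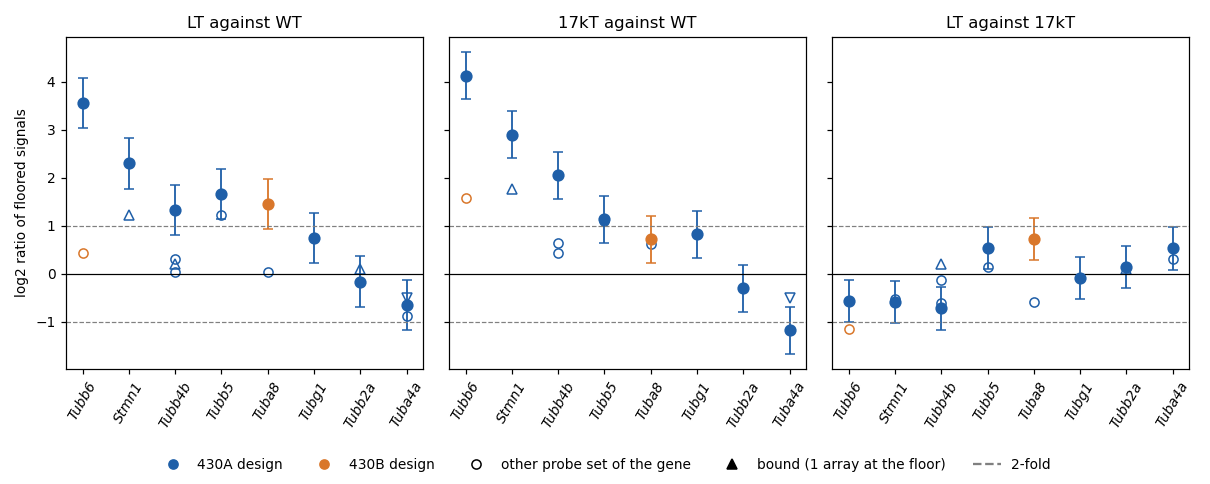
Log2 ratio of floored signals for the 8 measured genes in LT against WT, 17kT against WT and LT against 17kT; filled points represent the gene, with error bars of 1 SD between probe sets of the same gene (0.52, 0.49 and 0.44), open points are other probe sets, triangles are bounds where 1 array was at the floor, and dashed lines mark 2-fold. *Tubb6* on the 430A design lies at 3.55 and 4.12 against WT, and in LT against 17kT the filled points lie between -0.72 and 0.73.

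**Figure D3:**
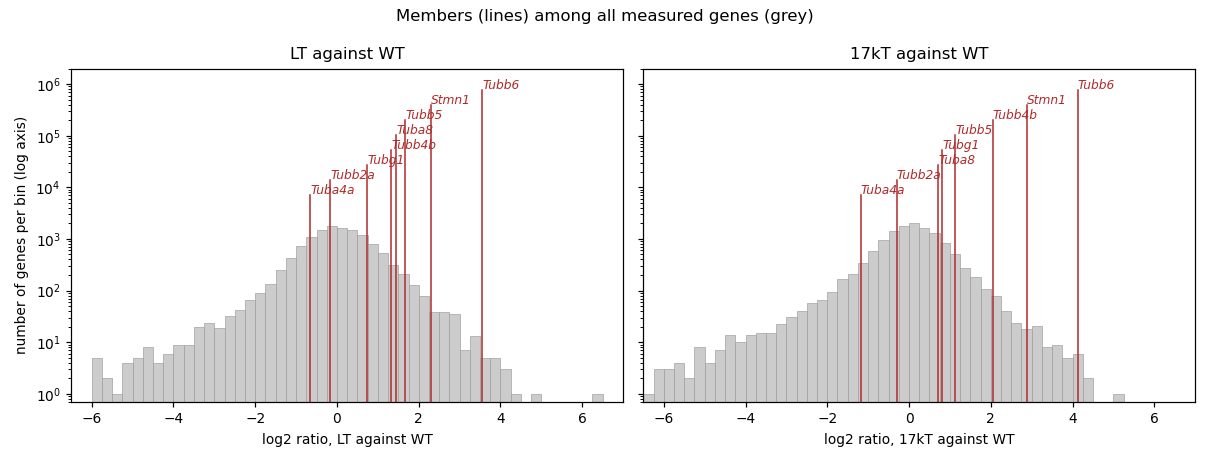
Number of genes per 0.25-wide bin of log2 ratio on a log axis, for all 12774 genes measured in LT against WT and 12990 in 17kT against WT (grey), with a red line at the ratio of each of the 8 measured genes; the height of a line carries no value. *Tubb6* and *Stmn1* lie in the right tail of both distributions, and *Tubb2a* lies near 0.

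The signals were scaled in 5 other ways, since a scaling to a common mean can shift every ratio. Against WT, *Tubb6* stayed between 3.30 and 3.92 in LT and 3.92 and 4.84 in 17kT on the log2 scale, and *Stmn1* between 2.05 and 2.67 in LT and 2.68 and 3.61 in 17kT. *Tubb4b* stayed past 2-fold under each, at 1.08 to 1.70 in LT and 1.85 to 2.77 in 17kT. *Tubb5* stayed past it in LT, at 1.42 to 2.04, but in 17kT ran from 0.93 to 1.86. Members called higher numbered 4 to 6 in LT and 3 to 5 in 17kT. The number of all measured genes called higher moved too, from 798 of 12906 to 2767 of 12527 in LT. In 17kT it ran from 1050 of 12891 to 3244 of 13054. The median of all genes itself moved between -0.27 and 0.41 in LT and between -0.05 and 0.47 in 17kT. The share of called genes that were higher was 55.2% in LT and 53.6% in 17kT as deposited, 27.0% and 42.9% when scaled to probe sets on both designs, and 82.9% and 83.5% when scaled to hybridisation controls. In LT against 17kT it was 51.4% as deposited, 73.2% when scaled to the median and 20.8% with the probe sets on both designs.

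**Figure D4:**
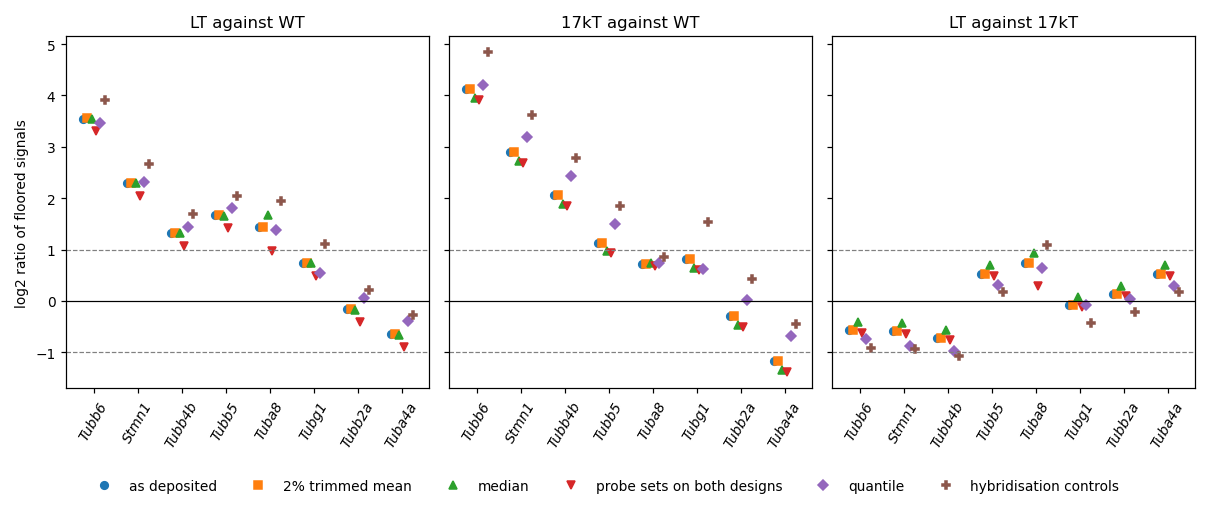
Log2 ratio of the 8 measured genes under each of 6 scalings (marker shape), in LT against WT, 17kT against WT and LT against 17kT, with dashed lines at 2-fold. *Tubb6*, *Stmn1* and *Tubb4b* stay above the upper line in both comparisons with WT, while *Tubb5* in 17kT runs from 0.93 to 1.86 and *Tuba4a* in 17kT from -1.39 to -0.46.

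The genes whose pattern over the 3 genotypes was most like that of *Tubb6* were found by the distance between their 2 log2 ratios to WT, among 5675 genes of the 430A design above the floor on all 3 arrays. They were *D17H6S56E-5* (distance 0.19), *Ccnb2* (0.25), *Top2a* (0.39), *Mki67* (0.57) and *Ube2c* (0.64). *Ccnb2*, a mitotic cyclin, was 13.8-fold above WT in LT and 16.6-fold in 17kT, and *Top2a*, a DNA topoisomerase, 14.9-fold and 19.8-fold. Those most like *Stmn1* were *Ezh2* (0.082), *Rad21* (0.13), *Ccl6* (0.14), *Asf1b* (0.15) and *Mcm3* (0.19). *Ezh2*, a histone methyltransferase, was 4.79-fold above WT in LT and 7.05-fold in 17kT, and *Mcm3*, a subunit of the replicative helicase, 5.58-fold and 7.65-fold. With 3 arrays behind each point, many genes can lie this near.

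Other genes of the microtubule system were read as lists. Proteins of the spindle were mostly higher: of 15 measured, 13 were past 2-fold in LT against WT and 13 in 17kT against WT. Of all measured genes, 11.1% and 9.97% were higher. No spindle gene was lower in either, and the median log2 ratio of the list was 1.73 and 2.21. *Tacc3*, *Kif2c*, *Kif11*, *Kif23* and *Spag5* were under the floor in WT, so they could not be called lower and their ratios are bounds. The 17kT median is itself the bound of *Kif2c*. With the scaling changed, 10 to 13 were higher in LT and 12 to 13 in 17kT. *Prc1*, which bundles the central spindle, read 998.9 in LT liver, 1243 in 17kT liver and 120.3 in WT liver, 8.30-fold and 10.3-fold above WT. *Nusap1*, a spindle microtubule binder, was 6.85-fold and 9.10-fold above WT, *Hmmr* 6.02-fold and 7.16-fold, *Ckap2* 3.49-fold and 6.12-fold, and *Tacc3*, under the floor in WT, at least 6.09-fold and at least 4.95-fold. The kinesin *Kif4* was the spindle gene past 2-fold between the transgenic livers, reading 299.8 in LT liver and 758.2 in 17kT liver, 2.53-fold lower in LT. Exceptions were *Numa1*, within 1.07-fold of WT in both, *Tpx2*, 1.37-fold above WT in LT, and *Dlgap5*, 1.69-fold above WT in 17kT.

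Tubulin folding genes were read next. Of 23 measured cofactors, chaperonin subunits and prefoldins, 4 were past 2-fold in LT against WT and 2 in 17kT, 0 were lower, and the medians were 0.62 and 0.39. Over all measured genes, 11.1% and 9.97% were higher in these comparisons. In LT these were *Tbcb* (2.04-fold), *Tbcd* (2.01-fold), the chaperonin subunit *Cct6a* (2.30-fold) and the prefoldin subunit *Vbp1* (2.23-fold), and in 17kT *Tbce* (2.55-fold) and *Vbp1* (2.80-fold). Scaling to other references moved the count between 0 and 11 in LT and between 2 and 15 in 17kT, so it is not firm. Of 11 genes of the gamma-tubulin ring complex and its anchors, *Mzt1* was 2.78-fold above WT in LT, and *Tubgcp2* and *Pcnt* were 2.94-fold and 2.88-fold above WT in 17kT. *Pcnt*, a centrosome scaffold, read 912.4 in LT liver and 2888 in 17kT liver, 3.17-fold lower in LT, and *Mzt1* was 2.63-fold higher in LT than in 17kT.

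Interphase and modifying genes were mostly within 2-fold of WT, as were most of all measured genes. Of interphase microtubule-associated proteins, 4 of 25 measured were higher in LT and 4 of 26 in 17kT, with medians of 0.22 and 0.06, and 0 were lower. Beside them, 11.1% of all measured genes were higher and 9.02% lower in LT, and 9.97% and 8.65% in 17kT. With the scaling changed, 1 to 6 of these proteins were higher in LT and 2 to 7 in 17kT. *Map1s*, *Clasp2* and, in 17kT, *Dclk1* were under the floor in WT and could not be called lower. The plus-end binder *Mapre1* (2.66-fold and 2.16-fold), the minus-end binder *Camsap3* (2.57-fold and 2.08-fold) and *Map6* (2.09-fold and 2.74-fold) were higher in both, *Map2* in LT (2.06-fold) and *Tacc2* in 17kT (2.11-fold). *Map2*, a stabilising protein best known from dendrites, was also higher in LT than in 17kT, just past 2-fold. Of 16 genes of tubulin modification, the deacetylase *Sirt2* was higher in both (2.47-fold and 2.44-fold), and the acetyltransferase *Atat1* was 2.54-fold lower in 17kT. *Ttll5*, a glutamylase, was 2.19-fold lower in LT than in 17kT. Among severing proteins, *Fignl1*, under the floor in WT, was at least 6.32-fold higher in LT and at least 4.88-fold in 17kT, 1 of 5 and 1 of 6 measured. Of the other tubulin genes on the arrays, *Tuba1a*, *Tubb1* and *Tube1* were measured and 0 passed 2-fold, while *Tuba3b*, *Tubb4a*, *Tubd1* and *Tubg2* were under the floor on all arrays. The 1 probe set of *Tuba1a* in use, an _x_at set, read 565.6 in LT liver, 397.4 in 17kT liver and 577.3 in WT liver.

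Other cytoskeleton genes were read beside the tubulins. Of 13 measured, 5 were higher in LT and 4 in 17kT, beside 11.1% and 9.97% of all measured genes. The medians of the list were 0.75 and 0.32. Across scalings, the number higher ran from 4 to 7 in LT and from 3 to 8 in 17kT. *Lmna*, a nuclear lamin, was 4.44-fold and 3.85-fold above WT, and *Actg1*, cytoplasmic gamma-actin, 3.26-fold and 2.62-fold, while *Actb* lay within 1.11-fold of WT in both. The tropomyosins *Tpm1* (2.75-fold and 2.30-fold) and *Tpm4* (2.42-fold and 2.38-fold) were higher in both. *Vim*, an intermediate filament of mesenchymal cells, read 1098 in LT liver, 503.5 in 17kT liver and 535.4 in WT liver, 2.05-fold above WT in LT and 2.18-fold higher in LT than in 17kT.

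The 14 markers of dividing cells, which include *Mki67* and *Top2a*, had a median log2 ratio of 2.91 in LT and 3.31 in 17kT against WT, above the medians of the 8 measured tubulin and stathmin genes. *Top2a* had the largest ratio in both comparisons among the markers above the floor on every array, and *Ube2c* was 14.3-fold and 11.8-fold above WT. *Birc5*, the mitotic protein survivin, was under the floor in WT and at least 11.8-fold and at least 17.9-fold higher. As a bound it cannot be ranked beside *Top2a*. *Rrm2*, a subunit of ribonucleotide reductase, was 14.4-fold above WT in 17kT. In LT against 17kT, the mitotic kinase *Bub1* was 2.09-fold higher and *Rrm2* 2.06-fold lower.

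**Figure D5:**
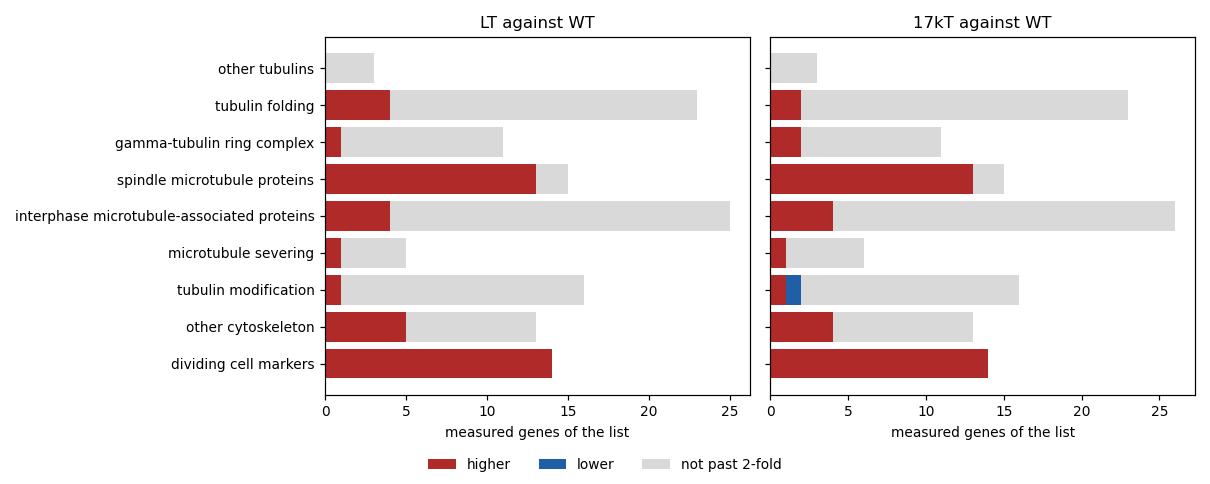
Number of measured genes of each list of the microtubule system that were higher (red), lower (blue) or not past 2-fold (grey) in LT against WT and in 17kT against WT. Of the spindle proteins 13 of 15 were higher in both, and all 14 markers of dividing cells were. Most genes of the other lists were not past 2-fold, like most measured genes.

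Markers of other liver cells were read for the same comparisons. Summed signals of endothelial markers were 2789 in LT liver, 3515 in 17kT liver and 4312 in WT liver, those of stellate cells 4781, 6985 and 7205, and those of Kupffer cells 12251, 15097 and 14530. Of 8 measured endothelial markers 3 were lower in LT and 2 in 17kT, where 1 was higher. Of 9 stellate markers 2 and 1 were lower, and of 10 Kupffer markers 0 and 1 were. Beside them, 9.02% of all measured genes were lower in LT and 8.65% in 17kT, and 11.1% and 9.97% were higher. Over the scalings tried, 0 to 3 endothelial markers were lower in LT and 0 to 2 in 17kT, with 0 to 2 higher there. Stellate markers lower numbered 1 to 2 in LT and 0 to 2 in 17kT, and Kupffer markers 0 to 1 in each. Up to 4 Kupffer markers were higher in 17kT. Bile duct and progenitor markers summed to 1265 in LT liver, 315 in 17kT liver and 306 in WT liver, through *Prom1* (at least 6.09-fold above WT in LT) and *Cd24a* (at least 6.03-fold), with *Krt7*, *Krt19*, *Epcam*, *Sox9* and *Cftr* under the floor on all arrays. Neutrophil markers summed to 2652, 2047 and 1250 in the same order, erythroid markers to 1351, 815 and 3238, lymphocyte markers to 636, 750 and 821, and megakaryocyte and platelet markers to 844, 1262 and 1159. Of 5 neutrophil markers measured in LT, *S100a8* (at least 2.53-fold) and *Lcn2* (2.48-fold) were higher, and of 4 in 17kT, *Lcn2* (2.06-fold). *Lcn2* made up most of that sum, at 1858, 1542 and 749.1 in LT, 17kT and WT liver. *S100a9*, *Elane* and *Mpo* did not pass 2-fold. *Ngp* lay below WT (log2 -0.05 in LT and -0.53 in 17kT), and *Camp* was under the floor on all arrays. The erythroid *Alas2* was 14.0-fold lower in LT and 12.4-fold lower in 17kT, and *Tfrc* was 2.48-fold lower in 17kT. Neuron markers summed to 1262, 1419 and 1275 and muscle markers to 329, 461 and 424, with *Rbfox3* the neuron marker past 2-fold (2.24-fold in LT and 2.54-fold in 17kT). *Tubb1* stands both among the platelet markers and among the other tubulins. The part of any of these cells in the member values was not tested.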

How the data were processed

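Signals were the intensity values the authors deposited for 6 Affymetrix arrays, MAS5 per the submitters' processing notes (version not given in the sources used here), and were used as deposited. The 17kT values carry more decimals than the LT and WT values. Any difference in their processing cannot be told apart from 17kT. No probe-level data were analysed here. Analysis used Python 3.11.15 with numpy 2.4.6 and pandas 2.3.3. Ratios were taken on a log2 scale after raising signals to the median of all signals of the design. Genes were named from GEO's platform annotation, keeping probe sets with 1 symbol (20380 and 14661), and 1 probe set that names a member with another gene was not used. The 10 members and the 21 gene lists were chosen with earlier results of these data known. The rule named all members, in each list the called genes with the largest ratios (up to 4), and for *Tubb6* and *Stmn1* the 5 nearest in pattern. *Tuba1a*, *Numa1*, *Tpx2*, *Dlgap5* and *Actb* and the examples from the cell type lists were added after their values were seen. The ratio and call steps were tested on simulated data. In all, 13 alternatives were tried. Chromosome positions come from RefSeq promoters (GRCm38.p6), where 6 of 10 members have an entry.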

Additional observations from a re-analysis of the deposited data

How the results depend on the processing

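Of the counts of members past 2-fold, the 5 in LT against WT became 3 under a 3-fold rule, 3 when a gene's probe sets were averaged and 1 on 430B probe sets alone. The 5 in 17kT against WT became 3 under the 3-fold rule and 1 on 430B alone. No number of all measured genes past 3-fold is given here, so the 3-fold counts have no share beside them. The 0 in LT against 17kT became 2 when scaled to hybridisation controls (*Tubb4b* lower, *Tuba8* higher) and 1 on 430B alone. Of all measured genes, 1072 were higher and 1017 lower of 12937 in LT against WT with probe sets averaged. On 430B alone these were 720 and 587 of 6761 in LT and 548 and 531 of 6882 in 17kT against WT. In LT against 17kT they were 438 and 406 of 6649 on 430B alone and 955 and 735 of 13121 with hybridisation controls. The 430B design holds only 2 of the probe sets, so its counts can reach at most 2. Its 1 in LT against 17kT is *Tubb6*, 2.22-fold lower in LT on 1446353_at and 1.49-fold lower on the 430A probe set. The cause of the changes in these counts was not tested. No member ratio called in the main setting changed sign. Over all alternatives, 207 member ratios moved by less than the SD of the 100 probe sets on both designs and 62 moved by more. Averaging probe sets left *Tubb4b* in LT at a log2 ratio of 0.47 and *Tuba8* in LT at 0.74, and *Tuba4a* in 17kT at -0.96. It also lowered *Tubb6* to 1.99 in LT and 2.85 in 17kT, and *Stmn1* to 1.76 and 2.32. With WT at the floor, *Tubb6* was at least 2.68 in LT and at least 3.26 in 17kT under a floor at the 75th percentile, and *Stmn1* at least 1.22 and at least 1.76 without probe sets ending in _s_at or _x_at. No paired analysis was possible because each group holds 1 array. That number of arrays, and signals near the floor, limit what can be read, and probe sets of *Tubb6*, *Tuba8* and *Tubb4b* disagree.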
